A study of Mus musculus with 4 samples.

Results

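Leak channels set how excitable a resting neuron is. Two-pore domain potassium channels, encoded by the Kcnk genes, let potassium out at rest and hold the membrane potential negative, and acid, membrane stretch, lipids, volatile anaesthetics and transmitters that act through G proteins open or close them. NALCN is a sodium leak channel that works against them, and it needs the large proteins UNC79 and UNC80 to reach the membrane and to function. In the brainstem such leak currents are known from neurons that control breathing and arousal, among them rhythmically firing cells that depend on NALCN.

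The 10 genes described here are 7 Kcnk genes (Kcnk1, Kcnk2, Kcnk3, Kcnk4, Kcnk9, Kcnk10 and Kcnk12) and the 3 genes of the NALCN complex (Nalcn, Unc79 and Unc80). They were chosen by gene symbol, and all 10 had a row among the 31735 gene rows that the 4 count tables share. The 4 libraries come from adult mice of the line NIDA172, which carries Cbln2-EGFP/Rpl10a; the rostral pons was taken, and all were controls that received no treatment. The mice carry ribosomal protein L10a joined to EGFP, and antibodies against EGFP pulled down tagged ribosomes with their bound RNA (translating ribosome affinity purification, TRAP). All 4 libraries are immunopurified RNA of 1 group, so the values are levels within the pulldown and say nothing of enrichment over unpurified tissue. The labels name Cbln2 for the tagged line and do not say whether a library holds 1 animal or a pool.

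The libraries held 12731825 to 21140265 counts over gene rows. The unit is CPM (counts per 1000000 gene counts of a library), and 3 counts, the level that a count of 0 allows, came to 0.142 to 0.236 CPM. Intervals and floors of this kind cover counting error only. By the library numbers in the descriptions, replicates 3 and 4 (2469 and 2470) are called the second pair here, and replicates 1 and 2 (1666 and 1667) the first pair. The row Rn45s, named for the ribosomal RNA precursor, took 24.2% and 9.29% of the gene counts in the second pair and 1.68% and 1.61% in the first. All 8 general neuronal markers reached 1 CPM in all 4 libraries, with a summed level of 11583 to 25768 CPM. Most of that sum was Snap25, at 6936 to 18577 CPM. The sums were 454 to 2010 CPM for 8 astrocyte genes, 414 to 2392 CPM for 8 oligodendrocyte genes and 9.19 to 54.5 CPM for 8 microglia genes. Since these are bulk libraries, fewer cells of a type and less RNA per cell cannot be told apart.

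The signature of a potassium channel is its selectivity filter, and each two-pore channel subunit has a pair of them. The coding sequences of the 10 genes (GENCODE M21, GRCm38, the longest coding transcript of a gene) were searched in frame on the coding strand for the filter codons, written as ACNNNNGGNTATGGN, ACNNNNGGNTACGGN, ACNNNNGGNTTTGGN and ACNNNNGGNTTCGGN. The middle codon reads tyrosine (TAT or TAC) or phenylalanine (TTT or TTC). The first match of each of the 7 Kcnk genes is shown because these codons are the signature of the family and differ among its members; the 15 bases in capitals are the match.
Kcnk1, first match: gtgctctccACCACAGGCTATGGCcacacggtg
Kcnk2, first match: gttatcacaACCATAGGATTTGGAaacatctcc
Kcnk10, first match: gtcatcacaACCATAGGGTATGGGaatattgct
Kcnk4, first match: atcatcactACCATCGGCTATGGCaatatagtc
Kcnk3, first match: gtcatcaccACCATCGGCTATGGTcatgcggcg
Kcnk9, first match: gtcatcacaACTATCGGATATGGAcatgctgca
Kcnk12, first match: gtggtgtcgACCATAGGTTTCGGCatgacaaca
Kcnk3, second match: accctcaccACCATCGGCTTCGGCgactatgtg
Kcnk9, second match: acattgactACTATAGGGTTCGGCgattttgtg

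The middle codon of the first match was TAT in 5 of the 7 Kcnk genes, TTT in Kcnk2 and TTC in Kcnk12. A second match was found in 6 of the 7, and its middle codon was TTT or TTC in all 6. Kcnk1 had 1 match, and these letters did not occur a second time in its coding sequence. Kcnk3 and Kcnk9, whose products TASK-1 and TASK-3 are close relatives, had both matches at the same codons, 93 and 199, of coding sequences of 409 and 402 codons. Nalcn and Unc79 had no match, and Unc80 had 1, in a protein that is not a pore. Of 21562 mouse coding sequences, 1.05% held at least 1 match and 0.0881% held at least 2. A match describes the letters only.

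The leak genes ranged from nearly undetected to among the more abundant genes of the pulldown. Of the 10 genes, 8 reached 1 CPM in all 4 libraries, as did 33.5% of all 31735 rows. Kcnk4 and Kcnk12 did not. At 10 CPM in all 4 libraries 5 of the 10 remained (Kcnk1, Kcnk2, Nalcn, Unc79 and Unc80, beside 20.3% of all rows), and at 100 CPM only Unc80 did (beside 4.19%).

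**Figure D1:**
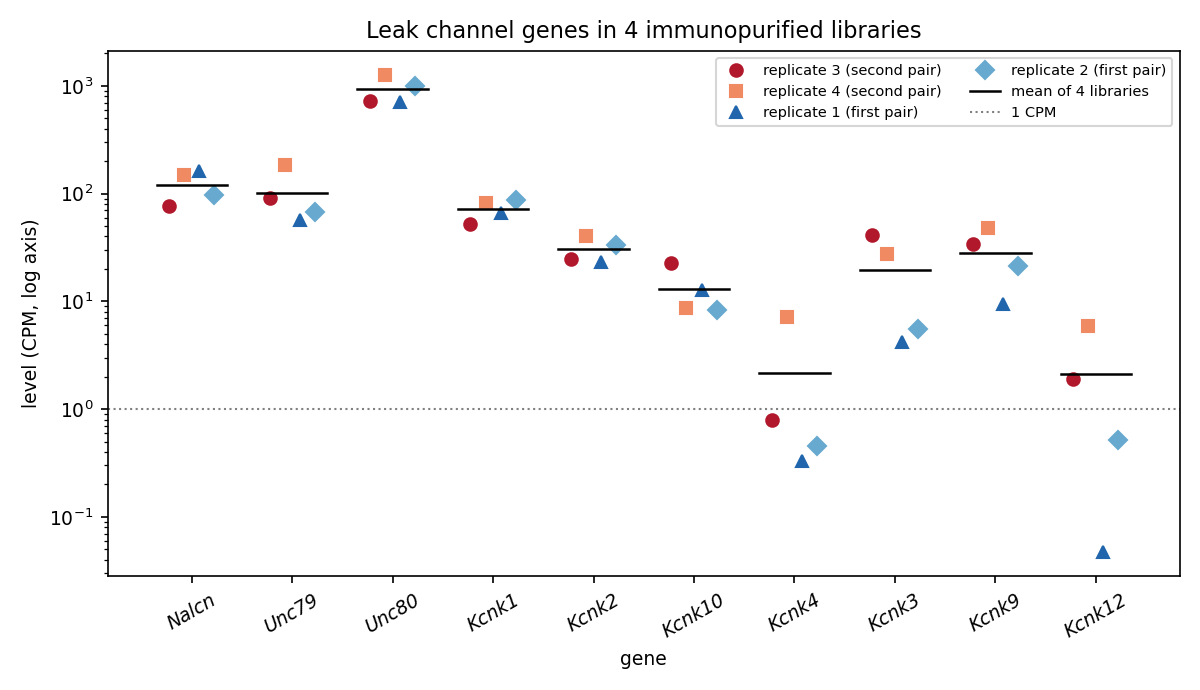
Level of each leak channel gene in CPM (log axis) in each library, with genes in groups by role and a bar at the mean of 4 libraries. Unc80 lies far above the rest in every library, Kcnk4 and Kcnk12 cross the dotted line at 1 CPM, and Kcnk3 separates the second pair (red and orange) from the first (blue).

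Nalcn (ENSMUSG00000000197.8, chromosome 14, 123276634 to 123627144, minus strand, GRCm38) encodes the pore of the sodium leak channel. It was at 76.0 and 149 CPM in replicates 3 and 4 of the second pair, and at 161 and 96.7 CPM in replicates 1 and 2 of the first pair, with a mean of 121 ± 40.9 CPM (SD, n = 4). Each library pair held 1 high and 1 low value, and the pairs overlapped.

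Unc80 (chromosome 1, 66468367 to 66699148, plus strand) encodes the scaffold that links UNC79 to the channel. It was the most abundant of the 10 in CPM, at 728 and 1271 CPM in replicates 3 and 4 of the second pair, and 714 and 987 CPM in replicates 1 and 2 of the first pair. The mean was 925 ± 263 CPM (SD, n = 4). Replicates 2 and 4 were the higher ones, and the pairs overlapped. Unc79 (chromosome 12, 102948859 to 103184065, plus strand), the third protein of the complex, was at 90.9 and 185 CPM in the second pair (replicates 3 and 4) and at 56.7 and 68.1 CPM in the first (replicates 1 and 2). Both libraries of the second pair lay above both of the first, and replicate 4 was the highest.

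Genes can be set against each other only per length. CPM per kb of union exon length (all exons of a gene merged, GENCODE M21) were used, as log2 with a pseudocount of 0.5 CPM per kb. On this scale Unc80 exceeded Nalcn 7.52-fold (log2 ratio 2.91 ± 0.53, SD, n = 4), in 4 of 4 libraries. The size depended on the length: the log2 ratio was 1.99 per kb of the longest transcript and 2.002 per kb of coding sequence, again above 0 in 4 of 4. Unc79 stood 9.19-fold below Unc80 (log2 ratio -3.20 ± 0.47), also in 4 of 4. Unc79 and Nalcn did not differ beyond the spread (log2 ratio of Unc79 over Nalcn -0.29 ± 0.79, above 0 in 2 of 4 libraries). In both libraries of the second pair Unc79 lay above Nalcn, by log2 ratios of 0.28 and 0.35, and in both of the first pair it lay below, by -1.36 and -0.42. Without replicate 1 the mean log2 ratio was 0.07. The side of 0 on which a library fell depended on the length. Without division by length the log2 ratio was -0.36 ± 0.85, again above 0 in 2 of 4 libraries. Per kb of the longest transcript it was -0.65 ± 0.82 and above 0 in 1 of 4. Per kb of coding sequence it was -0.94 ± 0.82 and above 0 in 0 of 4. A gene has the same length in every library, so the length shifts all 4 ratios alike and does not make the pairs differ. In all, 9 ratios were compared by an exact permutation test that flips signs over libraries (two-sided), which with 4 libraries has 16 sign patterns and cannot go below p = 0.125. Each of the 6 ratios that pointed one way in 4 of 4 libraries had this smallest exact p of 0.125 (0.188 adjusted over the 9 ratios). The exact p for Unc79 over Nalcn was 0.625.

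The FAM155 subunits belong to the same channel complex. Fam155a, which encodes the subunit also named NALF1, was at 107 and 104 CPM in the second pair and 170 and 174 CPM in the first, with a mean of 139 ± 38.4 CPM. Tmem28, listed in RefSeq with the synonym Fam155b, was low and uneven, at 0 and 3.85 CPM in the second pair and 6.72 and 18.6 CPM in the first. The 0 counts of replicate 3 allow a level of up to 0.236 CPM. Both were lower in both libraries of the second pair than in both of the first, as were 23.8% of all genes tested. Neither passed the edgeR test (log2 changes -0.68 and -2.80, adjusted p = 0.371 and 0.429).

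**Figure D2:**
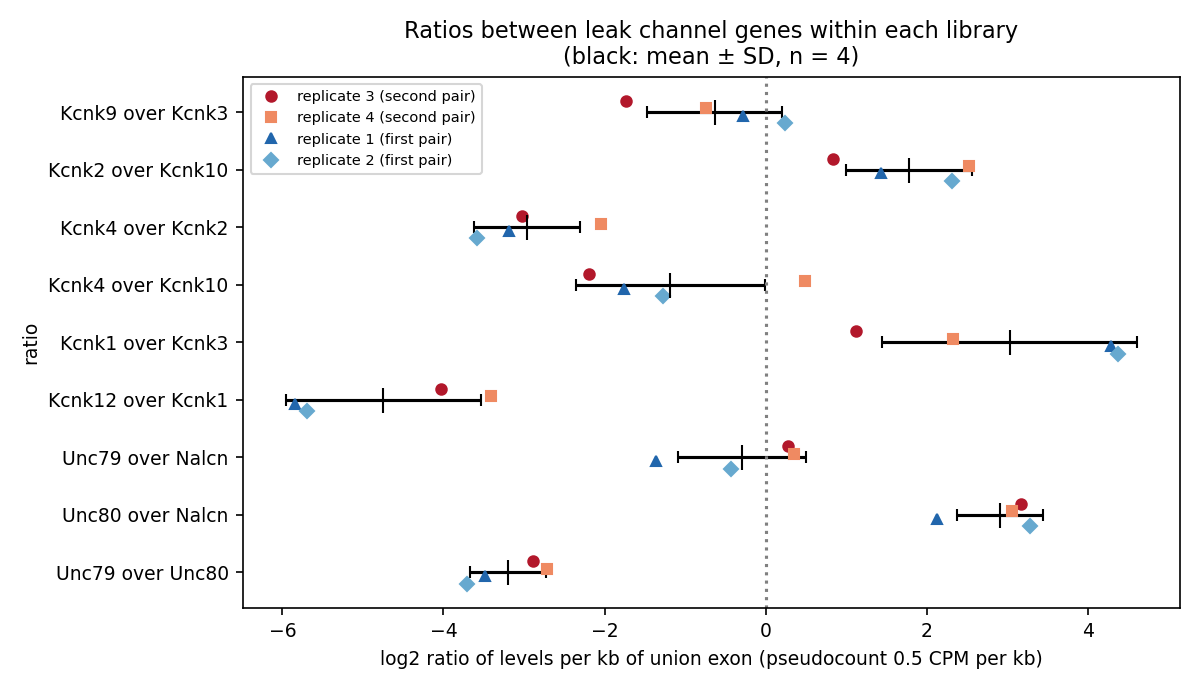
Log2 ratio of the first-named gene over the second per kb of union exon, in each library, with the mean and SD (n = 4). Unc80 exceeds Nalcn and Kcnk1 exceeds Kcnk3 in all 4 libraries, while Unc79 over Nalcn and Kcnk9 over Kcnk3 fall on both sides of 0.

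Among the two-pore channels, Kcnk1 (chromosome 8, 125995170 to 126030685, plus strand) led. It encodes TWIK-1, a weakly conducting channel known from neurons and astrocytes. It was at 52.2 and 82.3 CPM in replicates 3 and 4 of the second pair and at 66.3 and 86.8 CPM in replicates 1 and 2 of the first, and averaged 71.9 ± 15.8 CPM (SD, n = 4). The highest library was 1.66 times the lowest, and the pairs overlapped. The SD of its log2 CPM was 0.33, smaller than that of 86.9% of the 10632 genes at 1 CPM in all 4 libraries, whose median SD was 0.67. Replicate 3, where Kcnk1 was lowest, also had the lowest summed level of the astrocyte list (454 CPM, against 1228 to 2010 in the other three), of which 7 of 8 genes reached 1 CPM in all 4 libraries and none was at 0 throughout. The low sum was not particular to astrocyte genes. Replicate 3 was also lowest for the neuronal list (11583 CPM), the oligodendrocyte list (414 CPM) and its precursors (11.15 CPM), and the cerebellar granule list (183 CPM). The microglia, endothelial, Purkinje, motor and noradrenaline lists were lowest in other libraries. Rn45s took 24.2% of the gene counts of replicate 3, and that share lowers the CPM of every other row there. For Kcnk1, the neuronal list and the precursor list, the lowest place of replicate 3 depends on counting Rn45s in the total. The part of astrocyte RNA in the Kcnk1 level was not tested.

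The TREK group, the channels opened by stretch, heat and lipids, was uneven. Kcnk2 (TREK-1, chromosome 1, 189207930 to 189402273, minus strand) was at 24.7 and 40.3 CPM in the second pair and at 23.4 and 33.2 CPM in the first, a mean of 30.4 ± 7.89 CPM. The pairs overlapped, and the log2 SD of 0.36 was again among the smaller ones. Kcnk10 (TREK-2, chromosome 12, 98429437 to 98578310, minus strand) was at 22.6 and 8.75 CPM in the second pair and 12.6 and 8.36 CPM in the first, with replicate 3 the highest. Per kb, Kcnk2 exceeded Kcnk10 3.43-fold (log2 ratio 1.78 ± 0.79), in 4 of 4 libraries.

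Kcnk4 (TRAAK, chromosome 19, 6923966 to 6934515, minus strand) was near the detection limit in 3 libraries. It had 10 counts (0.785 CPM) in replicate 3 and 109 counts (7.12 CPM, exact Poisson 95% interval 5.84 to 8.58) in replicate 4, and 7 counts in each library of the first pair (0.331 and 0.450 CPM). The mean was 2.17 ± 3.30 CPM, and 0.522 CPM without replicate 4. Per kb it stood 7.79-fold below Kcnk2 (log2 ratio -2.96 ± 0.65) in 4 of 4 libraries, and against Kcnk10 the ratio was within its spread (log2 -1.18 ± 1.17, above 0 in 1 of 4, exact p = 0.25). Kcnk4 lay under the pseudocount in 3 libraries, so both ratios depend on it. With a pseudocount of 0.1 CPM per kb the log2 ratio was -4.09 against Kcnk2 and -2.05 against Kcnk10. Without division by length it was -4.18 against Kcnk2 and -2.91 against Kcnk10, below 0 in 4 of 4 libraries for each. Of its exon bases 13.1% overlap those of Catsperz on the same strand, so its counts are uncertain. Kcnk2 shares 12.2% of its exon bases with the antisense gene A430027H14Rik, Kcnk1 8.01% with Gm45875 and Kcnk3 5.76% with Gm9899. No source used here says whether counting used the strand, and without it reads of those stretches cannot be told apart.

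Kcnk3 and Kcnk9 encode TASK-1 and TASK-3, which acid closes and which form mixed channels. In the mouse brain Kcnk9 is an imprinted gene expressed from the maternal copy. Kcnk3 (chromosome 5, 30588170 to 30625271, plus strand) was at 41.5 and 27.6 CPM in replicates 3 and 4 of the second pair, and at 4.16 and 5.53 CPM in replicates 1 and 2 of the first. The mean was 19.7 ± 18.1 CPM (SD, n = 4), and 12.4 CPM without replicate 3. The pairs did not overlap, and the lowest library of the second pair was well above the highest of the first. Its log2 SD of 1.58 was larger than that of 96.8% of the genes at 1 CPM throughout. Kcnk9 (chromosome 15, 72501089 to 72546340, minus strand) was at 34.3 and 48.4 CPM in the second pair and 9.46 and 21.3 CPM in the first, likewise without overlap.

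Which of the TASK genes stood higher depended on the length used. Per kb of union exon the log2 ratio of Kcnk9 over Kcnk3 was -0.63 ± 0.84, positive in 1 of 4 libraries and smaller than its SD (exact p = 0.25). GENCODE gives Kcnk9 12.3 kb of exon and Kcnk3 3.98 kb, while the coding sequences are of similar length. Without division by length the ratio was 0.87 ± 0.88, and per kb of coding sequence 0.88 ± 0.87. Each was above 0 in 3 of 4 libraries. The order of this pair was therefore not settled by the counts. Kcnk1 exceeded Kcnk3 8.16-fold (log2 ratio 3.03 ± 1.58) in 4 of 4 libraries. That mean was less than 2 SD, with log2 ratios of 1.12 and 2.33 in the second pair and 4.29 and 4.38 in the first.

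Kcnk12 (chromosome 17, 87745801 to 87797994, minus strand) encodes THIK-2, a subunit that gives little or no current on its own. It had 24 and 91 counts in the second pair (1.89 and 5.94 CPM) and 1 and 8 counts in the first (0.0473 and 0.514 CPM). The mean of 2.10 ± 2.68 CPM was 0.816 CPM without replicate 4. Kcnk12 stood 26.8-fold below Kcnk1 per kb (log2 ratio -4.75 ± 1.21) in 4 of 4 libraries, and the log2 ratio was -5.68 with a pseudocount of 0.1 CPM per kb. Its relative Kcnk13 (THIK-1), which microglia express in mice, is outside the 10 genes and was at 0.943 and 2.55 CPM in the second pair and 6.29 and 0.900 CPM in the first. The microglia list summed to 10.4 and 54.5 CPM in the second pair and 31.6 and 9.19 CPM in the first, with 2 of 8 genes at 1 CPM in all 4 libraries.

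The remaining two-pore genes were at or near 0. Of the 7 Kcnk genes outside the 10, none reached 1 CPM in all 4 libraries. Kcnk7, Kcnk15, Kcnk16 and Kcnk18 had 0 counts in every library; in a single library that leaves room for 0.142 to 0.236 CPM at most. Kcnk5, the TASK-2 gene, known from the retrotrapezoid nucleus of mice, had 6 counts in replicate 1 and 0 in the other three. Kcnk6 had 8 and 17 counts in the second pair and 0 and 3 in the first.

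**Figure D3:**
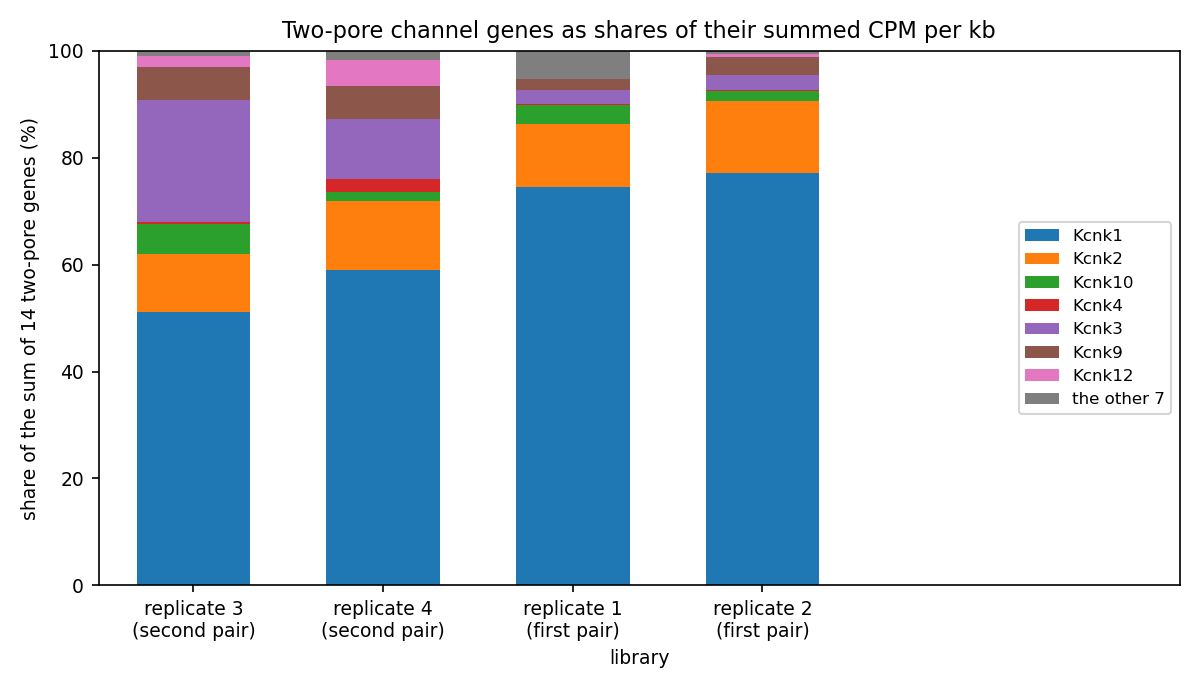
Share of each two-pore channel gene in the summed CPM per kb of all 14 measured Kcnk genes, 1 bar per library. Kcnk1 holds 51.0% and 58.9% in the second pair and 74.4% and 77.2% in the first, and Kcnk3 takes the largest part of the remainder only in replicate 3.

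As shares of the summed CPM per kb of 14 Kcnk genes, Kcnk1 made up 51.0% and 58.9% in replicates 3 and 4 of the second pair and 74.4% and 77.2% in replicates 1 and 2 of the first. The share of Kcnk2 was between 10.9% and 13.3% in all 4 libraries. Kcnk3 made up 22.8% and 11.1% in the second pair, against 2.63% and 2.76% in the first. The sum itself was 45.8 and 62.5 CPM per kb in the second pair and 39.9 and 50.3 CPM per kb in the first, so that the pairs overlapped in the sum. Differences in share were not tested.

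In the order of mean level per kb, Unc80 came first, at 64.1 ± 18.2 CPM per kb, and Kcnk1 next, at 32.2 ± 7.07. Unc80 lay above 92.9% to 97.3% and Kcnk1 above 85.1% to 90.7% of the 10131 genes at 1 CPM throughout whose length is known. The step between Unc80 and Kcnk1 (log2 0.97 ± 0.24) and that between Kcnk1 and Nalcn (1.94 ± 0.45) were over 2 SD and held in 4 of 4 libraries. Nalcn (8.20 CPM per kb), Unc79 (7.03) and Kcnk2 (6.15) followed, close to the median gene, which was at 5.74 to 6.78 CPM per kb. Kcnk3 (4.95), Kcnk9 (2.31), Kcnk10 (1.49), Kcnk12 (1.06) and Kcnk4 (0.486) came last. From Nalcn down, no gene differed from the next in this order by more than 2 SD, the largest mean step being 0.73 ± 1.38 between Kcnk2 and Kcnk3. Unc80 and Kcnk1 also came first when the longest transcript or the longest coding sequence was used. Their distance was smaller per kb of coding sequence, with Unc80 at 92.7 and Kcnk1 at 71.3 CPM per kb. That step was not set against its SD. The distance of Kcnk1 from Nalcn also depended on the length. Per kb of the longest transcript Kcnk1 was at 32.2 and Nalcn at 16.9 CPM per kb, and without division by length Nalcn (121 CPM) stood above Kcnk1 (71.9 CPM). Per kb of coding sequence Kcnk9 (23.5) stood beside Kcnk2 (23.8) and Nalcn (23.1).

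**Figure D4:**
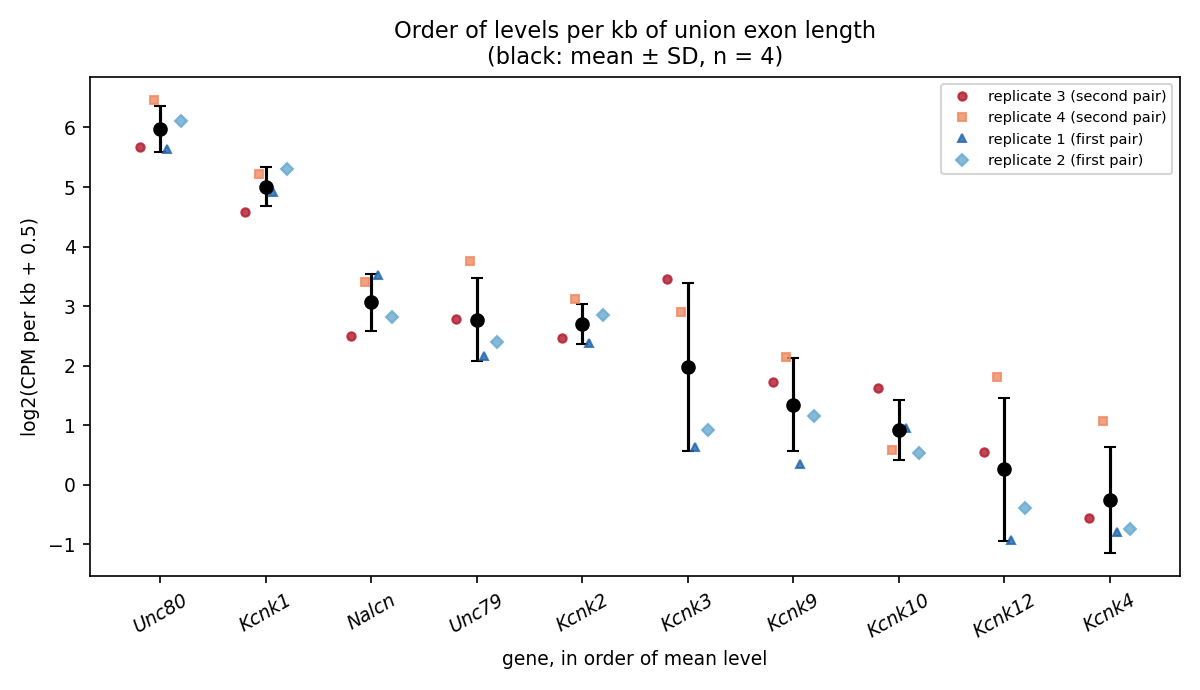
Log2 of CPM per kb of union exon plus 0.5 for the 10 genes in order of their mean, with the mean and SD in black and the 4 libraries beside it. Unc80 and Kcnk1 stand above the rest, and from Nalcn on the SD bars of neighbours overlap.

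The second library pair was set against the first to see which leak genes differ between replicates of the same group (edgeR quasi-likelihood test over 13905 genes, Benjamini-Hochberg). The adjusted p was under 0.05 for 0 of the 10 genes, beside 1.27% of all genes tested. Unadjusted, 2 of the 10 (Kcnk3 and Unc79) had a p under 0.05, beside 16.8% of all genes. By DESeq2 1 of the 10, Kcnk3, was called, beside 9.93% of all genes.

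Kcnk3 had the lowest p of the 10. Its second pair averaged 34.6 CPM and its first 4.84 CPM, a log2 change of 2.87 (SE 0.78), with an edgeR adjusted p of 0.0856. It passed by DESeq2 (adjusted p = 0.00166), in edgeR with no filter on low counts (adjusted p = 0.0274) and in edgeR without replicate 2 (adjusted p = 0.0381). Without replicate 3 the log2 change was 2.40 with an edgeR adjusted p of 0.443. Unc79 averaged 138 CPM in the second pair and 62.4 CPM in the first (log2 change 1.13, SE 0.42, edgeR adjusted p = 0.196). For Kcnk9 the log2 change was 1.42 (SE 0.67), with an edgeR adjusted p of 0.309. The largest estimates, 3.73 for Kcnk12 and 3.24 for Kcnk4, rest on few counts in the first pair and had SEs of 2.07 and 1.98.

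The 10 genes differed in how far the pairs lay apart. Kcnk3, Kcnk4, Kcnk9, Kcnk12 and Unc79, 5 of the 10, were above both libraries of the first pair in both of the second, beside 23.7% of all genes tested. The reverse held for 0 of the 10, beside 23.8%. The median log2 change of the 10 was 0.89, and that of all genes tested was -0.03. Kcnk4 and Kcnk12 were under 1 CPM in both libraries of the first pair. They passed the filter on low counts only through the second pair, where they were high. Their place among the 5 and in the median is therefore no evidence of a rise. Of the 8 genes at 1 CPM in all 4 libraries, Kcnk3, Kcnk9 and Unc79 remain, and none of them passed the main edgeR test. The median was not taken again without Kcnk4 and Kcnk12. Nalcn, Unc80, Kcnk1 and Kcnk2 had log2 changes of -0.21, 0.22, -0.19 and 0.19, and each of these changed sign when 1 library was left out. Kcnk10 was at 0.65 and turned to -0.36 without replicate 3.

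**Figure D5:**
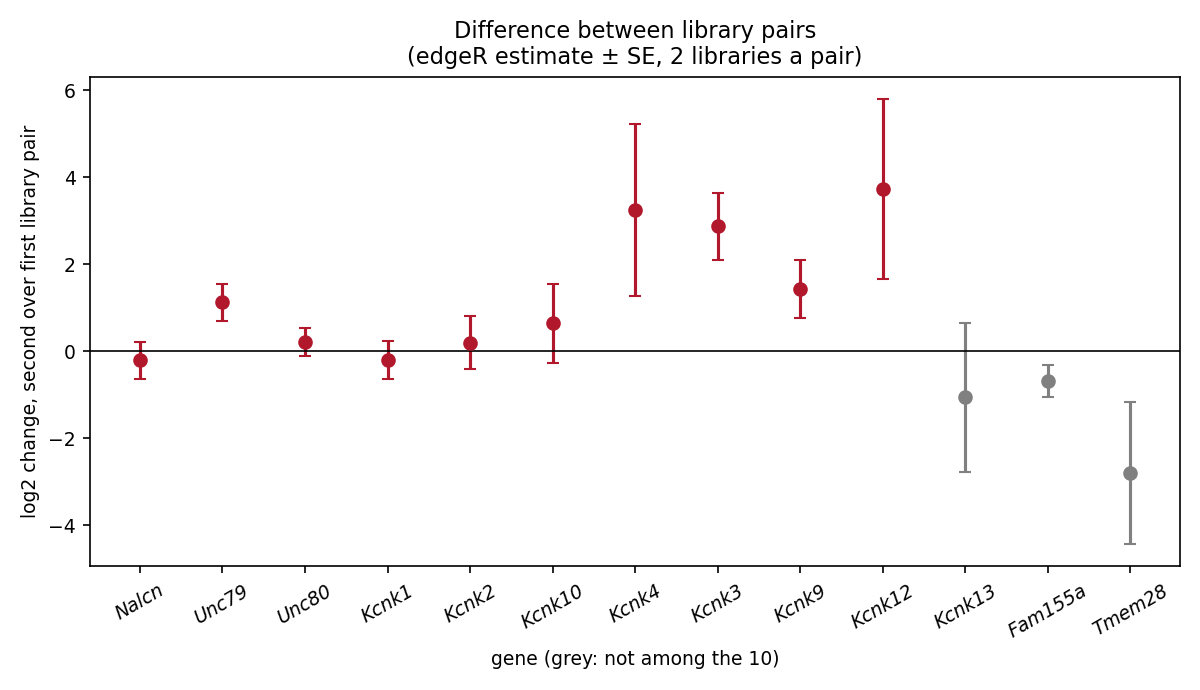
Log2 change of the second over the first library pair by edgeR with its SE, for the 10 leak genes (red) and for Kcnk13, Fam155a and Tmem28 (grey). Kcnk3 at 2.87 lies farthest from 0 relative to its SE, Kcnk4 and Kcnk12 have wide SEs, and Nalcn, Unc80, Kcnk1 and Kcnk2 lie near 0.

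Summed levels of several marker lists differed between the same pairs, and the lists were not tested as lists. The 8 general neuronal markers summed to 11583 and 12425 CPM in the second pair and 25768 and 22998 CPM in the first. Most of each sum was Snap25, at 8131 and 6936 CPM in the second pair and 18577 and 15908 CPM in the first. Of the 8, 1 fell by the edgeR test, the neurofilament gene Nefm (log2 change -2.56, adjusted p = 0.0238), and 0 rose. Syt1, Rbfox3 and Map2 had log2 changes of -0.02, -0.05 and 0.28. Those of Stmn2, Nefl and Syn1 were -0.33, -0.49 and -0.77. TASK channels are known from motor neurons and from the noradrenaline neurons of the locus coeruleus. The motor and cholinergic list summed to 38.9 and 33.3 CPM in the second pair and 4.35 and 6.62 CPM in the first. Most of the second-pair sum was Chat, a gene of cholinergic neurons and not of motor neurons alone. Chat was at 22.3 and 25.7 CPM in the second pair and 1.56 and 0.836 CPM in the first (log2 change 4.33, edgeR adjusted p = 0.0613). Of the list, 0 genes passed, and 1 of its 4 genes reached 1 CPM in all 4 libraries. The motor neuron gene Isl1 had 0 counts in 1 library of each pair and stayed under 1 CPM in all 4. The noradrenaline list summed to 60.2 and 241 CPM in the second pair and 62.8 and 18.0 CPM in the first, with 2 of 3 genes at 1 CPM throughout, so that the pairs overlapped. Th, which makes the noradrenaline precursor, rose in the second pair (log2 change 4.47, edgeR adjusted p = 0.037). The other two genes of the list, Dbh and Slc6a2, did not pass (log2 changes 3.76 and 1.09, edgeR adjusted p = 0.16 and 0.506), and both were lower in replicate 3 (2.20 and 23.6 CPM) than in replicate 1 (3.36 and 56.6 CPM). The cerebellar granule list summed to 183 and 314 CPM in the second pair and 627 and 1475 CPM in the first, 7 of its 8 genes being at 1 CPM throughout. Of 7 genes tested, 2 fell by the edgeR test, beside 0.554% of all genes, and 0 rose. They were Neurod1 (log2 change -3.75, adjusted p = 0.0127) and Cbln3 (-2.58, adjusted p = 0.0238). The log2 change was above 0 for 0 of the 7. The Purkinje list summed to 722 and 680 CPM in the second pair and 1448 and 2479 CPM in the first, with 5 of 6 genes at 1 CPM throughout. The part of any of these, and of the Rn45s share, in the differences of the leak genes was not tested.

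Transmitters reach leak channels through Gq proteins, phospholipase C and Src kinases, and other partners control their traffic. Of 18 such partner genes, 16 reached 1 CPM in all 4 libraries, 0 rose (beside 0.712% of all genes tested) and 1 fell (beside 0.554%). The G protein gene Gnaq was even, at 342 and 327 CPM in the second pair and 379 and 343 CPM in the first. Plcb4, a phospholipase C gene, fell to 276 and 309 CPM in the second pair, against 672 and 1227 CPM in the first (log2 change -1.69, SE 0.35, edgeR adjusted p = 0.0386, and 0.126 without replicate 2). The part of Purkinje cell RNA in the fall of Plcb4 was not tested. Of the 6 genes of the Purkinje list 5 were tested, and 2 of these fell. They were Car8 and Itpr1, by 2.85 and 1.75 on the log2 scale (edgeR adjusted p = 0.0127 and 0.0332, and 0.0899 for Itpr1 without replicate 2). Of the other three, Ppp1r17 had a log2 change of -2.48, Calb1 of 0.57 and Pcp2 of 1.85, and none passed (edgeR adjusted p = 0.115, 0.486 and 0.538).

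Src, of the kinase family through which substance P acts on NALCN, was low, at 8.88 and 17.6 CPM in the second pair and 3.60 and 2.51 CPM in the first. The substance P receptor gene Tacr1 was at 10.8 and 6.79 CPM in the second pair and 1.51 and 7.01 CPM in the first. Neither passed the edgeR test (adjusted p = 0.376 and 0.738). The chaperone gene Ywhab, of the 14-3-3 proteins that carry TASK channels to the membrane, was the most abundant partner, at 914 and 804 CPM in the second pair and 1953 and 1838 CPM in the first (log2 change -1.11, edgeR adjusted p = 0.0793). The gene Akap5, whose product binds TREK-1, was at 8.33 and 33.1 CPM in the second pair and 20.4 and 34.3 CPM in the first.

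The libraries were too few for a correlation between genes, and likeness to Nalcn was measured as the root mean square distance of centred log2 CPM over the 4 libraries. Among the genes at 10 CPM or more throughout, the 5 nearest to Nalcn were Cars, Ttc21b, Samd8, Ajap1 and Nudcd1, at distances of 0.022 to 0.068. The genes of its own complex were not among them. Of 6436 genes, Kcnk1 ranked 1339, Unc80 ranked 2019 (distance 0.481), Kcnk2 ranked 2191 and Unc79 ranked 4652 (distance 0.740). With 4 libraries many genes share a profile closely by number alone, so the ranks describe these libraries.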

How the data were processed

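Each deposited table held the raw counts of 1 library by gene symbol, not normalized. Per the submitters' processing notes, STAR 2.0.0e, HTSeq and the build mm10 were used; the annotation, strand setting and counting options are not given in the sources used here. The 5 HTSeq summary rows and a row named unknown, which was at 0, were kept out of totals. Unassigned reads outside features made up 24.0% to 30.1% and multiply aligned reads 28.6% to 37.2% of a table. The tables of replicates 1 and 2 had 32531 gene rows and those of replicates 3 and 4 had 32657; the 31735 shared rows were analysed, and CPM used all gene rows of a table. Rows of 1 set held 0.549% to 0.732% of a library's gene counts. Lengths came from GENCODE M21 (GRCm38, the assembly of mm10) by symbol, found for all 10 genes.

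The description of replicate 4 repeats the replicate label of replicate 3. The title was followed. A chi-square test of their counts gave 215 per degree of freedom, far from sampling noise, so the tables are not copies of 1 library. Replicates 1 and 2 gave 153. The test cannot say which label is right. The labels do not say whether replicates came from separate animals, so the spread behind the p-values may be technical. The library pairs were read from the library numbers and are not named as batches in the labels. The pairs were compared with edgeR 4.0.16 by its quasi-likelihood test after TMM scaling and filterByExpr, with a Benjamini-Hochberg threshold of 0.05. Alternatives were DESeq2 1.42.0, its size factors, other filters, other totals, lengths and pseudocounts, and leaving out each replicate. Ratios were tested with an exact sign-flip permutation test. All 10 genes, the other Kcnk and FAM155 genes and partner genes at 1 CPM throughout or called are the genes open to naming, along with the 5 genes nearest to Nalcn and marker genes. The genes, lists and tests were chosen with earlier results of these data known.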

Additional observations from a re-analysis of the deposited data

Results flagged for a closer look

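The gap between an extreme library and the next, divided by the range over 4 libraries, was compared with Dixon's 95% critical value for 42 sets of values, and 2 exceeded it; chance flags about 1 in 20. Kcnk4 was at 7.12 CPM in replicate 4, with a gap of 0.933 of the range. Kcnk5 was at 0.284 CPM (6 counts) in replicate 1 and at 0 counts in the other three, so its gap was the whole range.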

How the results depend on the processing

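No paired analysis was possible because the series has 1 group, so no groups share replicate numbers. The mean CPM of each of the 10 genes moved by less than its SD under other totals (shared rows, without Rn45s, TMM-scaled). Leaving out 1 of 4 libraries cannot move a mean by its SD, so that limit does not check single replicates. Without replicate 4 the mean fell from 2.17 to 0.522 CPM for Kcnk4 and from 2.10 to 0.816 CPM for Kcnk12. Without replicate 3 it fell from 19.7 to 12.4 CPM for Kcnk3. The number of genes at 1 CPM in all 4 libraries stayed at 8 except at a limit of 10 CPM, where it was 5. Of 81 alternative values of the ratios, 3 turned sign: Kcnk9 over Kcnk3 to 0.87 without division by length and 0.88 per kb of coding sequence (an alternative added after the data were seen), which the annotated length of Kcnk9 sets, and Unc79 over Nalcn, which ranged from -0.502 to 0.068 without 1 replicate, without replicate 1. Between library pairs edgeR called 176 genes, against 1398 by DESeq2, 875 with no filter, and 389 to 699 without 1 replicate. Of the 10 genes 0 were called, against 1 by DESeq2, 1 with no filter and 0 to 1 without 1 replicate; it was Kcnk3 each time. The share of calls that were higher was 56.2%, and 44.0% to 55.7% without 1 replicate. The cause of these shifts was not tested. Log2 changes between the pairs that turned sign without 1 replicate ranged from -0.431 to 0.044 for Kcnk1 (positive without replicate 2), from -0.073 to 0.498 for Kcnk2 (negative without replicates 1 and 4), from -0.36 to 1.23 for Kcnk10 (negative without replicate 3), from -0.636 to 0.17 for Nalcn (positive without replicates 1 and 3) and from -0.104 to 0.502 for Unc80 (negative without replicates 1 and 4). Where a pair is left with 1 library, that library is assumed to vary like the others. Depth limits Kcnk4 and Kcnk12, which had 1 to 10 counts in some libraries.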
